A study of Caenorhabditis elegans with 8 samples.

Results

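Nuclear hormone receptors are transcription factors that bind DNA through a zinc finger domain, and many of them are switched by a small lipophilic ligand such as a steroid or fatty acid. Caenorhabditis elegans carries far more of these genes than mammals do, most of them in an expansion that descends from an HNF4-like ancestor, with only a small set that has clear counterparts in insects and vertebrates. The worm receptors are known for control of fat metabolism, moulting, detoxification and the decision to enter the dauer stage. The receptor genes were taken as all protein-coding genes of the RefSeq WBcel235 gene table whose symbol starts with nhr-, plus daf-12, the receptor for the dafachronic acid steroids. This gave 270 of 19983 protein-coding genes.

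The data come from RNA immunoprecipitation followed by sequencing (RIP-seq), which asks which RNAs associate with the protein MSTR-1. Young adult worms kept at 25 °C were crosslinked with 2% formaldehyde for 30 min and lysed whole. The groups were the RIP and the input of strain WD656, in which the on49 allele puts a 3xFLAG tag on MSTR-1 at its own gene, F22D6.2 on chromosome I, and the RIP and the input of N2 worms without any FLAG tag, with 2 samples in each of the 4 groups. The result analysed here is the authors' list of 1207 regions of the genome that they name as specific to WD656. It has 1 value per region and none per library. No value below has a replicate error, no test between samples could be made, and the depth per library is unknown. The region names show RIP replicate 2 of WD656, so the values may come from 1 RIP library.

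Transcripts of nuclear hormone receptors were sparse in the list. Of the 270 receptor genes, 4 carried a region that shared at least 1 base with the gene span, which is 1.48% (exact 95% binomial interval 0.405 to 3.75, counting error only). Among all protein-coding genes, 954 of 19983 carried one, which is 4.77%. The 4 receptor genes were nhr-66, nhr-17, nhr-20 and nhr-88, with 5 regions between them, and no region lay over daf-12. The 14 annotated nhr pseudogenes held 0 regions. With a fold of 2 or more required, 3 of 270 receptor genes (1.11%) remained, beside 2.98% of all genes, and with a −log10 q of 5 or more, 2 of 270 (0.741%) beside 2.9%. A gene without a region had none in this list of regions specific to WD656. Region names carry numbers above the 1207 listed, such as 1421 for an nhr-17 region, so a region called in the tagged strain can be missing from the list. The list does not say whether such a gene was transcribed in these worms, since it holds no expression values.

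The highest receptor was nhr-66 (T09A12.4), whose protein is a partner of NHR-49 in the repression of sphingolipid and lipid remodelling genes. Its gene spans chromosome IV, 8226331 to 8236602, and its region runs from 8226691 to 8236513. The authors' fold over their control, a library that the sources used here do not name, was 2.90 at the summit and their −log10 q-value was 7.48. The read pileup at the summit, solved from the authors' fold and p-value, was 41 reads (exact 95% Poisson interval 29.4 to 55.6), over a control level of 13.5. Such intervals cover counting error only, since sequenced reads are not independent molecules. That control level is the lowest in the list, a floor shared by 304 of the 1207 regions. By fold, the region ranked 155th.

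The nhr-66 region also stood out in shape. At 9823 bp it covered 95.6% of the gene span, leaving 360 bp uncovered at the lower-coordinate end and 89 bp at the other. It ranked 3rd by width in the list, whose median width was 642 bp and in which 17 regions were wider than 5000 bp. The wider ones lay in egl-4 (14654 bp) and tra-1 (10964 bp), both much longer genes of which the regions covered 45.1% each. Of the wide regions, those in 2 other genes covered over 90% of a span as the nhr-66 region did, pmt-2 with 95.7% and T12D8.9 with 98.1%. Low coverage over the floor was shared by other wide regions. Among them, a sax-7 region of 7256 bp and an egl-4 region of 6388 bp had the same fold and pileup as the nhr-66 region. RefSeq lists 10 transcripts for nhr-66, against a median of 1 over the receptor genes. The gene table used here has no exons, so the share of this region in introns was not measured. An antisense RNA gene, anr-44, and a non-coding RNA gene, T09A12.6, also overlap the region, and the summit lies in neither. The regions have no strand, so reads of nhr-66 and of these genes cannot be told apart.

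nhr-17 (C02B4.2) was the receptor gene with more than 1 region. Its span is chromosome X, 12663837 to 12667854. The first region, 12664298 to 12664698, had a −log10 q of 5.47 and a fold of 2.44, from 42 reads (30.3 to 56.8) over a control level of 16.6. The other region, 12666317 to 12667302, had a −log10 q of 3.50 and a fold of 2.28, from 32 reads (21.9 to 45.2) over the floor. A gap of 1618 bp separates them, and they cover 9.98% and 24.5% of the span. Over all protein-coding genes with a region, 209 of 954 (21.9%) had 2 or more.

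nhr-20 (F43C1.4) and nhr-88 (K08A2.5) had weaker regions. The nhr-20 region at chromosome III, 4231686 to 4232598, covers 32.8% of a gene that spans 4230436 to 4233219. Its fold was 2.002 and its −log10 q 2.07, from 28 reads (18.6 to 40.5) over the floor. That is near the lower limit of what the list holds, where the lowest pileup was 26 reads and the lowest fold at the floor was 1.86. The nhr-88 region at chromosome II, 2978937 to 2979792, covers 9.94% of a gene that spans 2978416 to 2987023. Its fold was 1.97 and its −log10 q 2.54, from 35 reads (24.4 to 48.7) over a control level of 17.2. Non-coding RNA genes K08A2.12 and K08A2.16 overlap this region without holding its summit.

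**Figure D1:**
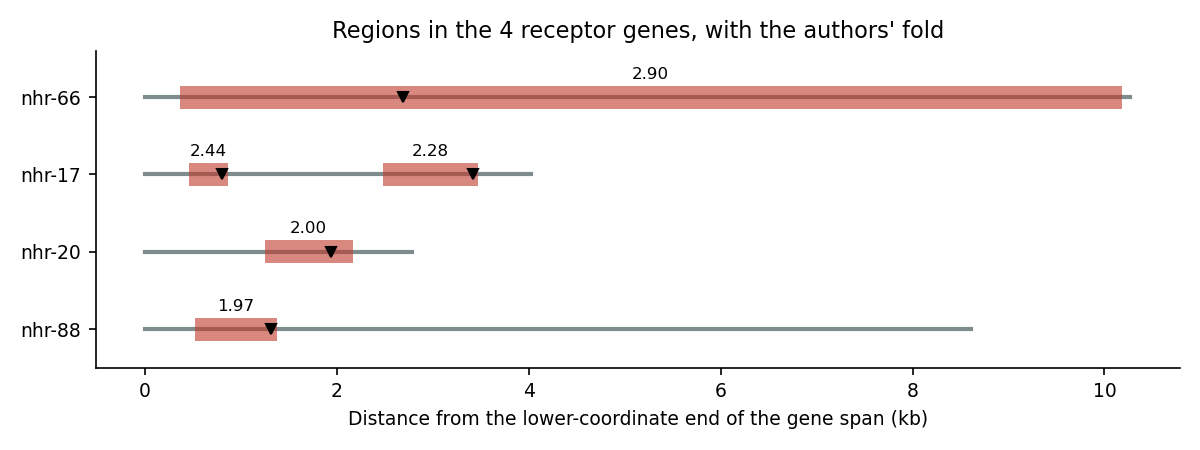
Positions of the regions (red bars) and their summits (black triangles) along the spans of the 4 receptor genes (grey lines), as distance in kb from the lower-coordinate end. Numbers are the authors' fold, which runs from 1.97 in nhr-88 to 2.90 in nhr-66, whose single region covers nearly the whole gene.

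No tissue is given in the files, since all RNA came from whole worms. For nhr-66 the known setting is the lipid metabolism that NHR-49 controls, for which the intestine is a main site. No tissue is assigned here to nhr-17, nhr-20 or nhr-88. In bulk RNA of this kind, fewer cells of a type and less RNA per cell cannot be told apart.

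All 5 receptor regions were sparsely covered. Their pileups ran from 28 to 42 reads with a median of 35, against a median of 55 and a maximum of 3128 over all 1207 regions. Only 412 regions of the list (34.1%) had a pileup of 42 or lower. The control was at the floor for 3 of the 5 receptor regions, against 25.2% of all regions. Fold was close to that of the list, with a median of 2.28 (range 1.97 to 2.90) in receptor regions and 2.10 (quartiles 1.78 and 2.49) in all regions. All regions at the floor had a median fold of 2.42. The median −log10 q was 3.50 in receptor regions and 5.41 in all regions. Each receptor region overlapped a single protein-coding gene. An unlabelled column of the deposited list, above 0 for 24.8% of all regions, was 0 for each of the 5.

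**Figure D2:**
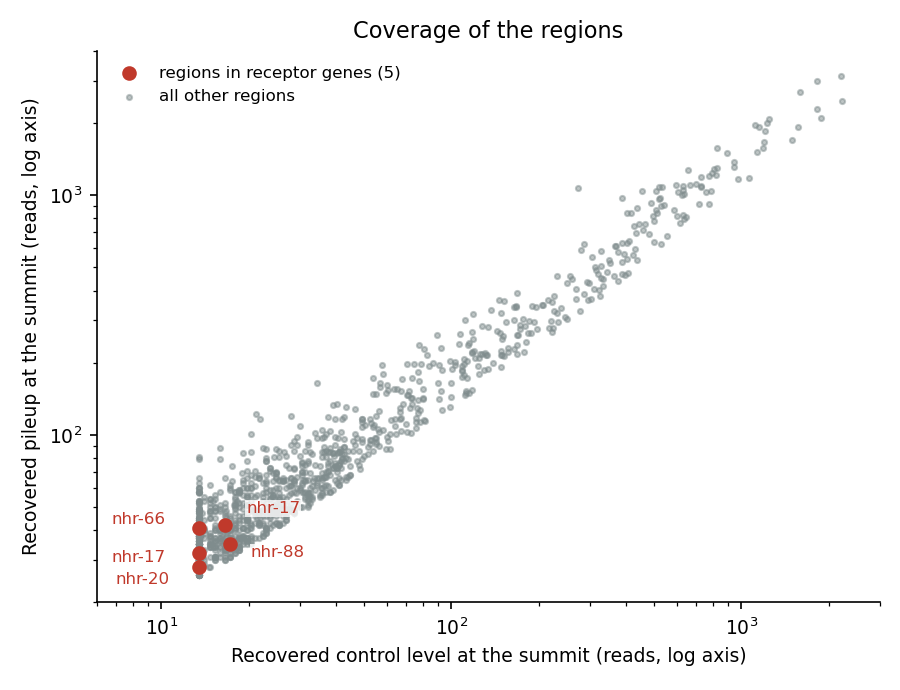
Recovered read pileup against recovered control level at the summit (both in reads, log axes) for the 5 receptor regions (red, named) and all other regions (grey). The receptor regions sit at the low end of both axes, at 28 to 42 reads over control levels of 13.5 to 17.2.

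Equal values recur among regions at the floor, because they come from equal small read numbers. The fold and pileup of the nhr-20 region were shared by 19 other regions, those of the second nhr-17 region by 19 others and those of the nhr-66 region by 8 others. The order of the receptor genes by fold follows the control level as well as the pileup. nhr-17 had 42 reads over 16.6 in its first region and nhr-66 had 41 over 13.5, and nhr-88 had more reads than nhr-20 and the lower fold.

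Receptors of known function were looked up in short lists. At 4.77% over all genes, lists of this size would mostly hold no gene with a region or 1, so their counts are given as a description only. Of 8 receptors tied to fat, fasting and related metabolic control, nhr-66 was the one with a region. NHR-49, which drives fatty acid oxidation and desaturation, NHR-80, which works with it on the stearoyl-CoA desaturases, and NHR-13, NHR-62, NHR-64, NHR-69 and NHR-76 had none over their genes. The genes of NHR-10 and NHR-68, which switch on propionate breakdown when vitamin B12 is low, and of NHR-114, which protects fertility on a poor diet, had 0 regions of 3. Receptors of the response to toxins, pathogens, iron and low oxygen (nhr-8, nhr-14, nhr-45, nhr-57, nhr-86, nhr-112 and nhr-176) had 0 of 7.

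Developmental receptors were counted in the same way. The epidermal and moulting group, which includes nhr-23 and nhr-25, both needed for moulting in the epidermis, and nhr-41, nhr-73, nhr-74 and nhr-85, had 0 of 6. Receptors acting in neurons, muscle and gonad, namely nhr-67, which specifies the anchor cell, nhr-6, which is needed in the spermatheca, nhr-40, which is needed for body wall muscle, and nhr-111, had 0 of 4. Among the 11 listed receptors with counterparts outside worms, which also include nhr-48, nhr-91 and daf-12, 0 had a region, and none of nhr-17, nhr-20, nhr-66 and nhr-88 is among them. The 4 nuclear receptors whose genes carry other names, fax-1, unc-55, sex-1 and odr-7, also had 0.

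The receptor genes are unevenly spread over the genome. Chromosome V holds 167 of the 270 (61.9%), against 25.0% of all protein-coding genes. On V, 0 of the 167 receptor genes had a region (exact interval 0 to 2.18%), while 3.48% of all protein-coding genes of V had one. Outside V, 4 of 103 receptor genes had a region, which is 3.88% (exact interval 1.07 to 9.65), beside 5.2% of all protein-coding genes there. Off V, the interval of the receptor genes includes the share of all genes. The 4 genes with regions lay on 4 chromosomes, with 1 of 15 receptor genes on II, 1 of 8 on III, 1 of 33 on IV and 1 of 24 on X, while I had 0 of 23. Of all protein-coding genes, 3.83% on II, 6.85% on III, 5.24% on IV, 4.98% on X and 5.53% on I had a region. With so few receptor genes on each of these chromosomes, a single gene sets the share.

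**Figure D3:**
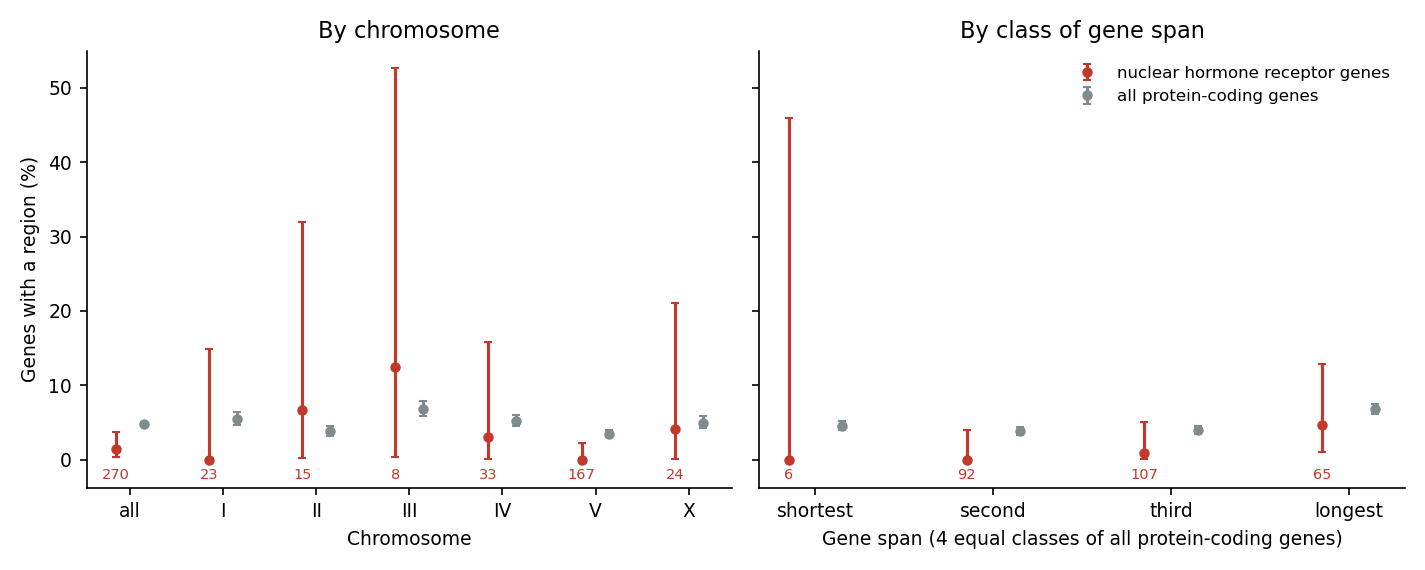
Share of genes with a region, in percent with exact 95% binomial intervals, for the receptor genes (red, with their number below) and all protein-coding genes (grey), by chromosome (left panel) and by class of gene span (right panel, 4 equal classes of all protein-coding genes). No receptor gene among the 167 of chromosome V had a region, against 3.48% of all protein-coding genes of V.

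Receptor genes often lie side by side, and none of those that do carried a region. This split was not planned. The next protein-coding gene by start position, on one side or the other, was another receptor gene for 137 of the 270 members, 107 of them on V. Since 0 of all 167 receptor genes of V had a region, those 107 repeat the count for V. Other types of gene between them were not considered. Of these 137, 0 had a region (exact interval 0 to 2.66%), and of the 133 without such a neighbour, 4 had one (3.01%, exact interval 0.825 to 7.52). Over all protein-coding genes the share was 4.77%, and 3.48% on V. The interval of the 133 includes both shares. Neighbouring receptor genes can resemble each other in sequence, and the sources used here do not say how reads that match several genes were treated. Its part in these counts was not tested.

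Gene number and span were looked at after the genes were known. All 4 are among the 94 genes numbered below nhr-100, where they make up 4.26% (exact interval 1.17 to 10.5), near the 4.77% of all protein-coding genes. Of the 175 genes numbered from nhr-100 upwards, 0 had a region (exact interval 0 to 2.09%). Their spans were 10272 bp for nhr-66, 8608 bp for nhr-88, 4018 bp for nhr-17 and 2784 bp for nhr-20, ranking 8th, 11th, 57th and 91st of the 270. The median was 6313 bp for the 4 genes and 2265.5 bp for the 266 receptor genes without a region. Over all protein-coding genes, it was 2361.5 bp with a region and 1992 bp without. The longest members, nhr-27 with 102695 bp and daf-12 with 22467 bp, had no region. The part of span in these counts was not tested.

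All protein-coding genes were divided by span into 4 classes of equal size, and the receptor genes with a region fell into the upper classes. In the longest class, above 3585 bp, 3 of 65 receptor genes had a region (4.62%, exact interval 0.962 to 12.9), beside 6.77% of all genes. In the third, 2005 to 3585 bp, it was 1 of 107 (0.935%, exact interval 0.0237 to 5.10), and the interval includes the 3.98% of all genes. In the second, 1205 to 2005 bp, 0 of 92 receptor genes had one (exact interval 0 to 3.93%), beside 3.8% of all genes, which the interval includes. Only 6 receptor genes were in the shortest class, with 0 regions, beside 4.54% of all genes.

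**Figure D4:**
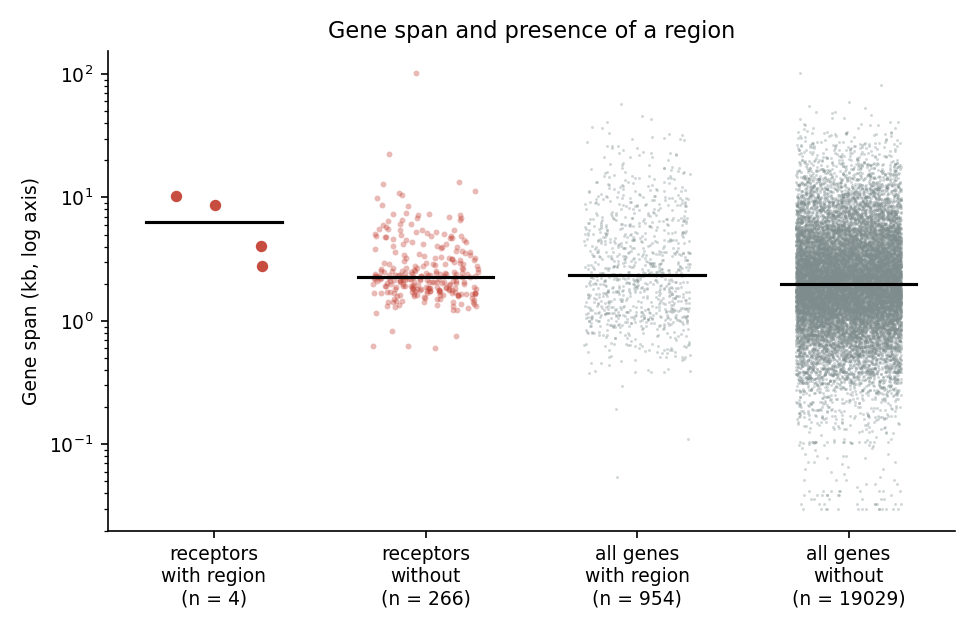
Gene span in kb (log axis) for receptor genes with and without a region (red) and for all protein-coding genes with and without one (grey). Each point is a gene and the black lines are medians, 6313 bp for the 4 receptor genes with a region and 2265.5 bp for the 266 without.

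Few other receptor genes lay near a region. Of the 266 without one, 1 was within 1000 bp of a region, and the median distance was 67672 bp. The nearest were nhr-132, 457 bp from a region of C14C6.5, nhr-47, 1561 bp from a region of dnj-19, and nhr-155, 2136 bp from the same region of C14C6.5. These distances are to regions that overlap the neighbouring genes and are not counted for the receptors.

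Other families of transcription factors were set beside the receptors, chosen after the receptor count was known. Of the 64 homeobox genes named ceh, 0 had a region (exact interval 0 to 5.60%), and of the 25 helix-loop-helix genes named hlh, 1 had one (4%, exact interval 0.101 to 20.4), hlh-11, with a fold of 2.33. Both intervals include the 4.77% of all protein-coding genes, and the differences between the families were not tested.

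Partners, ligand enzymes and targets of the receptors were also looked up, in lists chosen with earlier results of these data known. Their counts are a description only, beside the 4.77% of all protein-coding genes with a region. Of 26 Mediator subunit genes, which link transcription factors to RNA polymerase II, 1 had regions, mdt-15. MDT-15 is the subunit that NHR-49 works through. Its regions at chromosome III, 5830675 to 5831121 and 5832712 to 5833361, had folds of 2.27 and 1.65, from 32 reads over 13.5 and 48 reads over 28.7. Their −log10 q-values were 3.50 and 1.75. The corepressor gene din-1, which acts with DAF-12, and the regulators cbp-1 and sbp-1 had 0 regions.

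In the synthesis of the DAF-12 ligands and the handling of their sterol precursors, 2 of 8 genes had a region. emb-8, which encodes the reductase that supplies cytochrome P450 enzymes with electrons, had folds of 2.33 and 1.93 from 37 and 27 reads. ncr-2, a Niemann-Pick type sterol transporter gene, had 1.72 from 431 reads over 250.2, in a region that also overlaps the collagen gene col-91. The −log10 q was 4.30 and 1.75 for the emb-8 regions and 22.8 for that of ncr-2. The genes daf-9, daf-36, dhs-16, hsd-1, strm-1 and ncr-1 had no region.

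Among the listed target genes, those of intestinal metabolism and defence were represented by single members. Of 8 genes of the NHR-49 and NHR-80 programme, icl-1, the glyoxylate cycle enzyme, had 4 regions with folds of 1.29 to 1.80, from 180 to 221 reads. The listed desaturase genes fat-5, fat-6 and fat-7, as well as acs-2, fmo-2, hacd-1 and cpt-5, had none. Outside this list, the desaturase gene fat-3 had a region with a fold of 2.14 and fat-4 one with 3.20. acdh-1, an acyl-CoA dehydrogenase gene of the propionate shunt that NHR-10 and NHR-68 activate, had folds of 3.38 (48 reads over the floor) and 2.97 (57 reads over 18.5), and hphd-1 of the same shunt had no region. irg-5, an immune response gene controlled by NHR-86, had 2.62 and 1.95 from 197 and 201 reads, and irg-4 had none. In a list of 8 moulting genes, mlt-8 was the one with a region, with 2.76 from 39 reads over the floor. That count depends on the genes picked, since mlt-7, outside the list, had a region with a fold of 1.93. The −log10 q was 1.93 to 12.3 for icl-1, 11.2 and 10.8 for acdh-1, 29.7 and 15.5 for irg-5, and 6.52 for mlt-8. These lists are too short for their counts to be read against the 4.77% of all genes.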

How the data were processed

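The study has RIP and input samples of tagged and N2 worms (8 samples). The 1 deposited region list was used here, and the sources do not say which of the samples its values rest on. STAR and deepTools were used, per the submitters' processing notes. The sources used here give no caller, control library or genome build. Per the deposited file's layout, which is that of MACS2 narrow peaks without a header, each region has a summit, a score, a fold (ratio of treatment over control) and −log10 values of p and q. These are the authors' own values, and the region names show RIP replicate 2 of WD656. A region counted for a gene when it shared 1 base with its RefSeq WBcel235 span. Reads were solved from the fold, assumed to have 1 read added above and below, together with a Poisson tail for the p-value, giving whole pileups within 0.02 in 96.6% of regions. The solver was tested on data simulated with the same formula, which cannot show whether the formula holds for the authors' values. Every receptor gene with a region is named, as is every listed gene with a region. The receptor genes and lists were chosen with earlier results of these data known. Python 3.11.15, pandas 2.3.3, numpy 2.4.6, scipy 1.17.1 and matplotlib 3.10.9 were used. Coordinates are 1-based.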

Additional observations from a re-analysis of the deposited data

How the results depend on the processing

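With 50% of each region or its summit required inside the gene, or with regions over several protein-coding genes left out, the same 4 receptor genes and 5 regions remained, and adding fax-1, unc-55, sex-1 and odr-7 left 4 of 274. With a fold of 2 or more, nhr-88 was lost, leaving 3 genes (2.98% of all protein-coding genes passed) and a median fold of 2.36. With a −log10 q of 5 or more, 2 genes (nhr-66 and nhr-17) and 2 regions remained, with a median fold of 2.67 (2.9% of all genes). Alternatives chosen after seeing the data were regions above the control floor, with 2 genes (nhr-17 and nhr-88), 2 regions and a median fold of 2.21 (3.73% of all genes), and regions with an unlabelled value above 0, with 0 genes and 0 regions (1.39% of all genes). No paired analysis was possible because the list holds no value per library, so leaving out replicates was not possible either. Low read numbers limit all 5 receptor regions.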
